A study of Mus musculus with 4 samples.

Results

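The genes described here encode the aryl hydrocarbon (Ah) receptor, parts of its complex, its targets and enzymes grouped under metabolism of nitrated polycyclic hydrocarbons. The set held 9 genes out of 53465 in the count table: the receptor Ahr, its partner Arnt, the co-chaperone Ptges3, the targets Tiparp, Cyp1a1, Cyp1b1 and Nqo1, the electron donor Por and the cytochrome P450 gene Cyp4x1. They were chosen by name, with earlier results of these data known, and matched by Ensembl identifier. All 9 were found. Whether the product of Cyp4x1 acts on nitrated polycyclic hydrocarbons was not tested. Polyadenylated RNA was sequenced. The labels name the cells MLE-12, a mouse lung line derived from tumours in which the surfactant protein C promoter drove a viral large T antigen. Control cells received no 1-nitropyrene (n = 2 libraries, replicates 1 and 2), and treated cells received 5 µM 1-nitropyrene, a nitrated polycyclic hydrocarbon of diesel exhaust, for 12 h (n = 2 libraries, replicates 2 and 3). No genetic change was named for either group.

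The Ah receptor is a ligand-activated transcription factor of the bHLH-PAS family. Without ligand it rests in the cytoplasm with the chaperone Hsp90 and the co-chaperone p23 (encoded by Ptges3). Planar aromatic ligands release it into the nucleus, where it pairs with Arnt and binds response elements with the core GCGTG near genes such as Cyp1a1, Cyp1b1, Tiparp and Nqo1. Cytochromes P450 oxidise polycyclic hydrocarbons with electrons passed on by Por, while nitroreductases act on the nitro group.

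The libraries held between 6908055 and 10773733 counts, of which 44.2% to 45.9% lay at loci of ribosomal RNA although the RNA is labelled as polyadenylated. These counts are part of the totals behind every CPM value and floor below. In these labelled MLE-12 libraries all 9 listed epithelial markers (among them Epcam, Cdh1 and Krt8) had 0 counts, and so had 6 of 10 alveolar type 2 markers. The summed alveolar type 2 markers, mostly Abca3, reached 13.5 to 14.9 CPM (counts scaled to a common library total) in every library. The summed fibroblast markers, which were not tested as a sum, stood at 6.87 and 3.47 CPM in the controls against 1.82 and 1.05 CPM with 1-nitropyrene, and endothelial, macrophage and airway markers stayed at or below 0.29 CPM in each library. Genes that every cell uses were unevenly covered: 16 of 36 nuclear complex I subunit genes and 1 of 12 RNA polymerase II subunit genes had 0 counts in all libraries, while other subunit genes of RNA polymerase II reached 4147 counts in total. Of all protein-coding genes 55.2% had 0 counts in all libraries. A gene at 0 is therefore reported only as listed at 0, and a level as the reads assigned to a mouse locus. Whether these reads derive from mouse lung epithelial cells was not tested.

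The response element gives the receptor's targets a common sequence, and short stretches around the core are shown for the 3 targets whose RefSeq promoter window (GRCm38.p6, from 250 bases before to 50 bases after the start site) held it. Capitals mark the core GCGTG, and each stretch is written 5′ to 3′ on the strand that carries the core.
Cyp1a1, chr9:57697549-57697573, plus strand: agataaggagGCGTGgccaacagac
Cyp1b1, chr17:79715123-79715147, plus strand: agggggtgggGCGTGaggggcggga
Tiparp, chr3:65528267-65528291, minus strand: cctcccgtgcGCGTGctccggacgg
The core lay 54, 76 and 170 bases upstream of the start site in these genes, on the strand of the gene for Cyp1a1 and on the opposite strand for Cyp1b1 and Tiparp. Windows were found for 7 of the 9 genes (those of Ahr and Cyp4x1 were not). GCGTG, searched on both strands, was present in 6 of these 7 windows: 3 times for Por, 2 times for Ptges3 and 1 time each for Arnt, Cyp1a1, Cyp1b1 and Tiparp. It was not in the window of Nqo1. The core is frequent, in 32.4% of 32851 promoter windows of the same 300 bases. The longer form TNGCGTG, which contains GCGTG, was in 5.07% of them and in none of the 7. These matches describe letters in the windows and not binding.

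With 1-nitropyrene, Tiparp rose, and no gene of the set fell beyond the test. Tiparp, a target that encodes a mono-ADP-ribosyltransferase acting back on the receptor, rose 1.17-fold. Cyp4x1 had 6 counts summed over the control libraries and 37 over the treated ones. Ahr, Arnt, Ptges3 and Por did not pass the test, and Cyp1a1, Cyp1b1 and Nqo1, the targets most used as markers of receptor activity, had between 0 and 1 count in each library. By edgeR's quasi-likelihood test with Benjamini-Hochberg adjustment over 7738 genes, 2 of the 6 tested genes were higher and 0 lower. Of all tested genes 13.2% were called higher and 11.2% lower, together 24.5%. The median log2 fold change of the 6 genes was 0.21, and that of all tested genes was -0.00347. Cyp4x1 entered the test only through its treated libraries (0 control libraries and 2 treated libraries passed the count filter). Its own call, the counts of called genes and the median over tested genes are therefore a description only. At an unadjusted p under 0.05 edgeR placed 3 higher and 0 lower. The share of all tested genes at that threshold was not counted. After adjustment limma-voom called 2 higher and 0 lower, against 937 and 743 of all 7738 genes. DESeq2 called 1 and 0 with no adjusted p for Ahr and Cyp4x1, against 517 and 319 of all 7738. A gene's spread came from a trend over all genes, so standard errors take no account of how far its own replicates differed. In such bulk libraries, fewer cells that use a gene and less of its RNA per cell cannot be told apart.

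**Figure D1:**
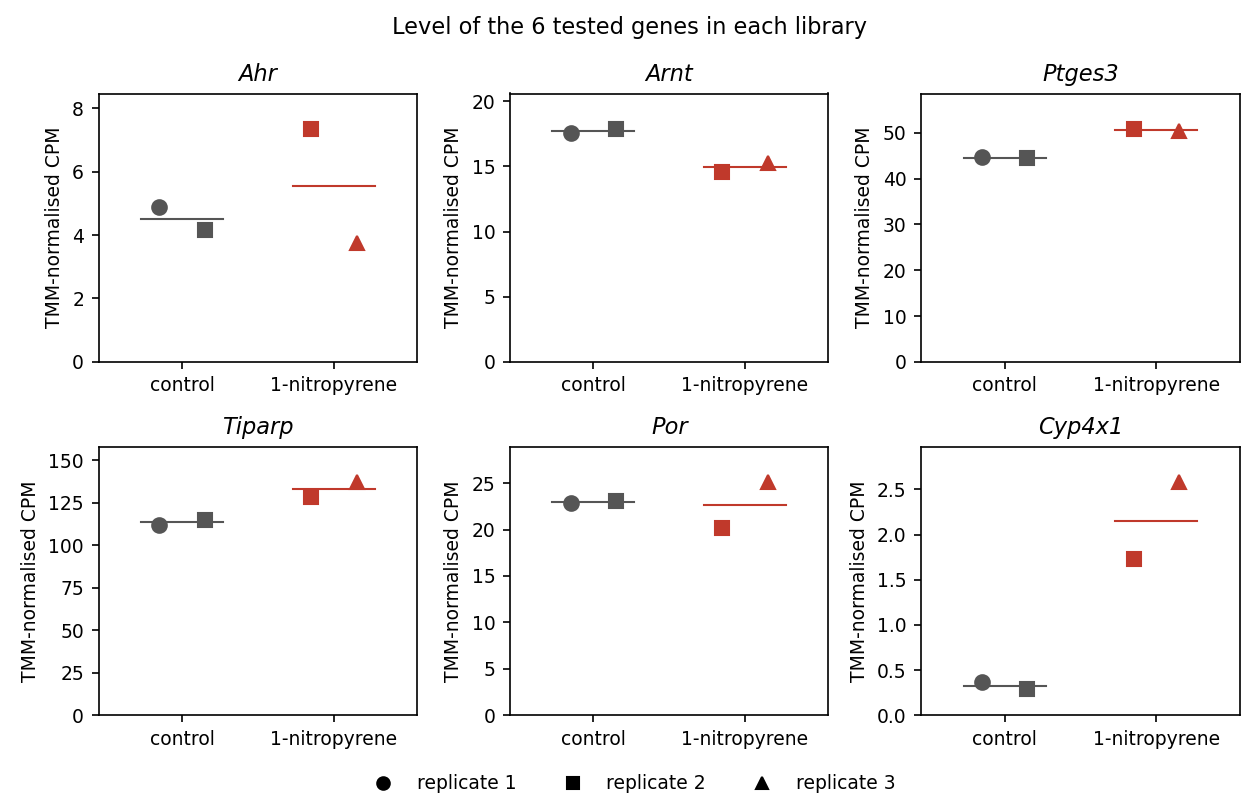
TMM-normalised CPM (vertical axes, from 0, a separate scale for each gene) of the 6 tested genes in the 2 control and 2 1-nitropyrene libraries. Points are libraries and lines are group means. Both treated libraries lie above both controls for Ptges3, Tiparp and Cyp4x1 and below both for Arnt, and the treated libraries of Ahr (7.36 and 3.76 CPM) and Por (20.1 and 25.1 CPM) lie on either side of their controls.

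The receptor itself was at a low level and its treated libraries differed. Control libraries held 53 and 29 counts of Ahr (GRCm38 chromosome 12, 35497974 to 35535038, minus strand). The treated ones held 64 (replicate 2) and 32 (replicate 3). On the TMM-normalised CPM scale these were 4.88 and 4.16 without 1-nitropyrene, and 7.36 and 3.76 after it. The highest and the lowest library were thus both treated ones, and the groups overlapped. The level in 1-nitropyrene replicate 3 was 0.511 times that in replicate 2, with a 95% counting interval of 0.323 to 0.793. Group means were 4.52 ± 0.508 and 5.56 ± 2.55 CPM (SD, n = 2 libraries each). In edgeR the log2 fold change was 0.28 (SE 0.27) with an adjusted p of 0.506, and the treated-to-control ratio had a 95% interval from 0.837 to 1.76. The value followed single libraries: it was -0.29 without 1-nitropyrene replicate 2 and 0.68 without 1-nitropyrene replicate 3. That replicate 3 also had the lowest sum of mitochondrially encoded mRNAs (1.86 CPM against 24.6 to 46.9 CPM in the other libraries) and of fibroblast markers, whose part in the Ahr values was not tested. An opposite-strand gene, Gm48236, shares 127 bp of exon with Ahr and had 2 to 5 counts per library.

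Arnt (chromosome 3, 95434388 to 95497240), the partner that the receptor needs to bind DNA, was lower in both treated libraries without passing the test. Control libraries stood at 17.6 and 17.9 CPM, treated ones at 14.6 and 15.3 CPM. The groups did not overlap, an order that 29.2% of all tested genes showed in this direction. The log2 fold change was -0.25 (SE 0.15, adjusted p = 0.252, edgeR), and the ratio lay between 0.686 and 1.04 at the 95% level.

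Ptges3 (chromosome 10, 128058954 to 128077272), whose product p23 stabilises the Hsp90 complex that holds the receptor, showed the opposite order. Its control libraries were at 44.7 and 44.4 CPM, its treated libraries at 51 and 50.4 CPM. Both treated libraries exceeded both controls, as in 30.0% of all tested genes. The unadjusted p was 0.0374, and the gene did not pass after adjustment (log2 fold change 0.18, SE 0.09, adjusted p = 0.119, edgeR).

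Tiparp (chromosome 3, 65528410 to 65555518) was the most abundant gene of the set. The controls held 1217 and 801 of its reads and the treated libraries 1118 and 1168, or 112 and 115 CPM against 129 and 137 CPM. The lowest treated library lay above the highest control. Means were 113 ± 2.02 and 133 ± 6.14 CPM (SD, n = 2 libraries each). The log2 fold change was 0.23 (SE 0.06, edgeR adjusted p = 0.00045), a ratio of 1.17 with a 95% interval of 1.09 to 1.27. The call held in all 17 other settings, with adjusted p between 0.000321 and 0.0452. Its fold change was an ordinary one here: 55.1% of tested genes had a smaller absolute log2 fold change. A pseudogene on the opposite strand, 4931440P22Rik, shares 223 bp of exon and had 0 counts.

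Cyp1a1 and Cyp1b1 encode the P450 enzymes that the receptor classically induces, and Nqo1 encodes a quinone reductase controlled by both the receptor and Nrf2. Cyp1a1 had 1 count in control replicate 1 and 0 in the other libraries. Cyp1b1 had 1 count in 1-nitropyrene replicate 2 and 0 in the others, and Nqo1 was listed at 0 in all 4. By counting error alone, a count of 0 allowed up to 0.278 to 0.434 CPM per library at a floor of 3 counts. All these values were at or below that floor in both groups, so no fold was computed. Genes that every cell uses were also listed at 0 here, so a 0 sets no upper limit on expression. Induction of Cyp1a1, Cyp1b1 and Nqo1 was neither detected nor excluded at any level.

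Por (chromosome 5, 135670033 to 135735326), the reductase that passes electrons from NADPH to microsomal P450 enzymes, was near its control level on average. Controls stood at 22.8 and 23.1 CPM, and treated libraries at 20.1 and 25.1 CPM. The treated libraries enclosed the controls, and replicate 3 exceeded replicate 2 by 1.25 times (95% counting interval 1.02 to 1.53). The log2 fold change was -0.02 (SE 0.13, adjusted p = 0.942, edgeR), with a ratio between 0.829 and 1.17. Without 1-nitropyrene replicate 2 it was 0.13, and without 1-nitropyrene replicate 3 it was -0.19.

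Cyp4x1 (chromosome 4, 115106323 to 115134281, minus strand) encodes a P450 of the fatty acid oxidising CYP4 family. It had the largest fitted log2 fold change of all 7738 tested genes, at the lowest counts of the set that could be tested. With 0 control and 2 treated libraries past the count filter, the gene was tested only because its treated counts were high. Its rank, adjusted p and calls are therefore a description and not support for a rise. Its control counts were 4 and 2 and its treated counts 15 and 22, or 0.368 and 0.287 CPM against 1.73 and 2.59 CPM. The groups were well apart, but the level stood above only 2.43% of the tested genes. The ratio of summed counts, scaled to library size, was 6.40 with an exact 95% counting interval of 2.68 to 18.5. The fitted log2 fold change was 2.63 (SE 0.65, adjusted p = 0.000495, edgeR). It was called in all 15 other settings that gave an adjusted p, between 0.000421 and 0.033, with log2 fold changes of 2.31 to 2.89. The antisense gene Cyp4x1os shares 450 bp of exon and had 0 counts in all libraries.

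Per kilobase of exon, control levels ran from Tiparp (26.0 CPM per kb) over Ptges3 (20.1), Por (5.71), Arnt (2.22) and Ahr (0.733) to Cyp4x1 (0.0782), followed by Cyp1a1 (0.0165), Cyp1b1 and Nqo1 (listed at 0). Over all 4 libraries the ranges of neighbours in this order did not overlap from Tiparp down to Ahr. Those of Ahr (0.610 to 1.19 CPM per kb) and Cyp4x1 (0.0685 to 0.618 CPM per kb) touched, since Cyp4x1 reached the level of Ahr in 1-nitropyrene replicate 3. Per kilobase in the controls, about 3 times as many reads were thus assigned to Arnt as to its partner Ahr. Coverage was uneven even among genes of a single complex, so this order describes assigned reads and not amounts of RNA.

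The genes closest in pattern to a called gene were taken by the Euclidean distance of log2 CPM, centred on each gene's mean over the 4 libraries, among genes averaging 10 CPM or more. Those closest to Tiparp were the GTP-binding protein gene Gtpbp1 (distance 0.0125), the Arp2/3 subunit gene Arpc3 (0.0172) and the RNA-binding protein gene Pcbp2 (0.0173), with log2 fold changes of 0.24, 0.25 and 0.22. For Cyp4x1 no gene came as close. The nearest were the histone gene Hist1h2bh (0.647), the collagen gene Col5a2 (0.897) and the predicted gene Gm4335 (0.936). Their log2 fold changes were 1.55, 1.25 and 1.23. Cyp4x1 itself averaged below 10 CPM and had the largest log2 fold change of all tested genes, so this rule could give no close match.

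Other parts of the receptor complex and its coactivators included Hsp90 genes that rose. Of 14 listed chaperones, partners and coactivators 12 were tested, with 5 higher and 1 lower. Of all tested genes 13.2% were higher and 11.2% lower. This list and the related ones below were chosen with earlier results of these data known, so their counts are a description only. DESeq2 called 4 higher and 0 lower (2 without an adjusted p), where it called 517 higher and 319 lower of all 7738 genes. In limma-voom 5 were higher and 0 lower, against 937 and 743 of all 7738 genes. The median log2 fold change was 0.14, against -0.00347 over all tested genes. The Hsp90 genes were the most abundant of the list. Together with Smarca4, Ep300 and Crebbp they stood above the 90th percentile of level among tested genes (145 CPM), but Crebbp did not pass. At such levels smaller fold changes pass the test, so the share over all tested genes is not a like background. Hsp90aa1 rose from 449 and 436 CPM to 573 and 576 CPM (log2 fold change 0.38, SE 0.03), and Hsp90ab1 from 585 and 573 CPM to 674 and 682 CPM (0.23, SE 0.03). Cul4b, a cullin of the ubiquitin ligase in which the liganded receptor acts as substrate adaptor, rose from 49.6 and 48 CPM to 60.3 and 63.5 CPM (0.34, SE 0.08, adjusted p = 0.000412, edgeR). The chromatin remodeller Smarca4 (0.24, SE 0.05) and the acetyltransferase Ep300 (0.17, SE 0.05, adjusted p = 0.00558, edgeR) rose by less, and Ep300 lost its call in DESeq2 and in 3 of the 4 fits that left out a library. Arnt2, the neural paralog of Arnt, fell from 3.77 and 3.73 CPM to 2.07 and 1.65 CPM (-1.01, SE 0.38, adjusted p = 0.0348, edgeR), a call lost whenever any 1 of the 4 libraries was left out. The receptor repressor Ahrr, itself a target, was not tested, with counts of 7 and 6 before and 9 and 8 after 1-nitropyrene.

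Beyond Tiparp the targets gave little to measure. Of the 12 other listed targets 8 were listed at 0, among them Aldh3a1, and Cyp1a2 had 1 count in 1 treated library. Nfe2l2, which encodes Nrf2, was the 1 tested, at 12.8 and 12.9 CPM in control and 13 and 10.9 CPM in treated libraries (log2 fold change -0.10, SE 0.17, adjusted p = 0.738, edgeR). Among 15 other listed proteins with a PAS domain, several of which also pair with Arnt, 4 were tested. The 15 include Per1, Per2 and Per3, which have no bHLH domain. Hif1a, the hypoxia-responsive partner of Arnt, rose from 57.3 and 55.2 CPM to 69.4 and 65 CPM (0.25, SE 0.08, adjusted p = 0.0079, edgeR). This call ended in DESeq2 and in 3 of the 4 fits without a library, and Hif1a shares 330 bp of exon with the antisense gene Gm15283, which had 150 to 232 counts. The clock genes Clock, Arntl and Per1 had log2 fold changes of -0.01, -0.04 and -0.13 and did not pass.

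**Figure D2:**
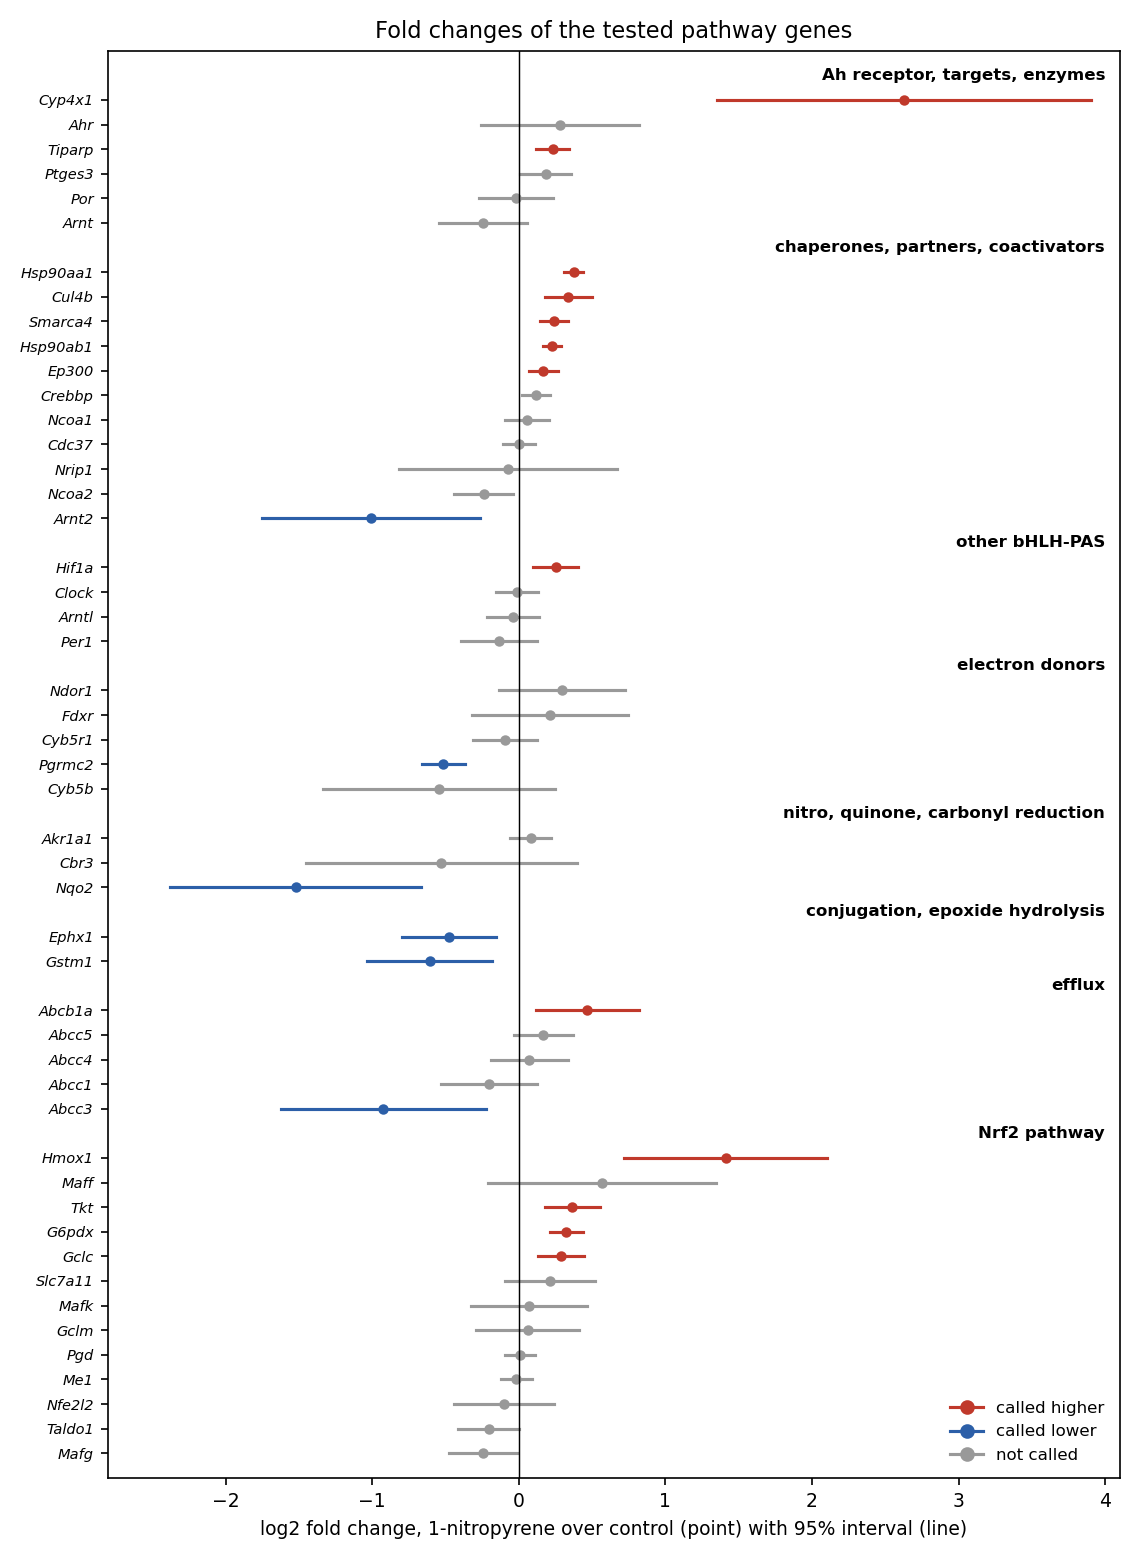
Log2 fold change of 1-nitropyrene over control (horizontal axis) for tested genes of the set and of the related lists, with 95% intervals from edgeR. Colours mark the call after adjustment over 7738 genes. Cyp4x1 stands at 2.63 with a wide interval, Tiparp at 0.23, and Ephx1 and Gstm1 lie at -0.47 and -0.61.

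Of 100 protein-coding genes of the P450 family 89 were listed at 0 in all libraries and 95 had no more than 3 counts in total. Only Cyp4x1, Cyp51 and Cyp2j13 were tested, and Cyp51, the sterol demethylase, was at 15.5 and 14.2 CPM against 18.4 and 17.3 CPM (log2 fold change 0.25, SE 0.15, adjusted p = 0.238, edgeR). Cyp2j13 was at 1.47 and 2.15 CPM against 0.92 and 2.12 CPM. Of 12 electron donors and related reductases 5 were tested, with 1 lower and 0 higher, where 11.2% of all tested genes were lower and 13.2% higher (0 higher at an unadjusted p under 0.05, and 0 by DESeq2 and limma-voom). That gene was Pgrmc2, a membrane haem-binding protein, which fell from 86.2 and 81 CPM to 58.8 and 58.9 CPM (-0.51, SE 0.07, adjusted p = 9.44e-11, edgeR). The reductase genes Ndor1, Fdxr and Cyb5r1 and the cytochrome b5 gene Cyb5b had log2 fold changes of 0.30, 0.21, -0.10 and -0.54 and did not pass. The relative of Pgrmc2, Pgrmc1, a partner of P450 enzymes, was listed at 0.

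Reductases that could act on the nitro group, on quinones or on carbonyls were mostly below the filter. Of 12 listed genes 3 were tested and 5 were listed at 0, among them the aldehyde oxidase genes Aox1 and Aox3. Nqo2, a quinone reductase related to Nqo1, went from counts of 30 and 30 to counts of 11 and 9, and fell by 1.52 on the log2 scale (SE 0.44, adjusted p = 0.00342, edgeR). It passed the filter on low counts through its controls, lost its call without control replicate 2 and shares 762 bp of exon with Serpinb6a, which had 0 to 3 counts. The carbonyl reductase genes Akr1a1 and Cbr3 had log2 fold changes of 0.08 and -0.53 and did not pass. Xdh, which encodes xanthine oxidoreductase, a known nitroreductase, was below the filter, with control counts of 12 and 8 and treated counts of 1 and 4. Its ratio of summed counts was 0.259 with a 95% counting interval of 0.0761 to 0.712, a gene named after its values were seen.

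Of 20 listed genes of conjugation and epoxide hydrolysis 10 were listed at 0 and 2, Ephx1 and Gstm1, were tested. Both were lower, as were 11.2% of all tested genes. Ephx1, the microsomal epoxide hydrolase that opens hydrocarbon epoxides, fell from 15.9 and 17.9 CPM to 12.4 and 11.6 CPM (log2 fold change -0.47, SE 0.16, adjusted p = 0.0192, edgeR). Gstm1, a glutathione transferase with near-identical family members, fell from 9.47 and 10.6 CPM to 6.1 and 6.93 CPM (-0.61, SE 0.22, adjusted p = 0.0257, edgeR). DESeq2 called neither, and neither was called without a filter on low counts. The call of Ephx1 was lost in 3 of the 4 fits without a library and that of Gstm1 in all 4. Of 8 efflux transporters 5 were tested. Abcb1a, a P-glycoprotein gene, rose from 9.11 and 11 CPM to 15 and 12.3 CPM (0.47, SE 0.18, adjusted p = 0.0409, edgeR) and Abcc3, an exporter of conjugates, fell from 3.31 and 5.3 CPM to 1.61 and 2.7 CPM (-0.92, SE 0.36, adjusted p = 0.0417, edgeR). Both calls lay close to the threshold, and each ended in limma-voom, without a filter on low counts and in 2 of the 4 fits without a library. That of Abcb1a also ended in DESeq2, at a mean of at least 10 CPM and with upper quartile factors or no scaling factors, and DESeq2 gave no adjusted p for Abcc3. Abcc5, Abcc1 and Abcc4 had log2 fold changes of 0.17, -0.20 and 0.07 and did not pass.

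Nrf2 and the Ah receptor share targets such as Nqo1. Of 17 other Nrf2 pathway genes 13 were tested, with 4 higher and 0 lower, where 13.2% of all tested genes were higher and 11.2% lower (1 lower at an unadjusted p under 0.05, and 0 by DESeq2 and limma-voom) and a median log2 fold change of 0.07. Haem oxygenase 1 (Hmox1) rose most, from control counts of 24 and 9 to treated counts of 38 and 47, or 2.21 and 1.29 CPM against 4.37 and 5.52 CPM (1.41, SE 0.35, adjusted p = 0.000582, edgeR). G6pdx and Tkt, enzymes of the pentose phosphate pathway that supplies NADPH, rose by 0.32 (SE 0.06) and 0.37 (SE 0.10), and Gclc, the catalytic subunit of glutathione synthesis, by 0.29 (SE 0.08). G6pdx shares 418 bp of exon with Ikbkg on the opposite strand, which had 152 to 262 counts. The call of Gclc ended without control replicate 1 and without 1-nitropyrene replicate 3. DESeq2 called 1 of the 13 genes higher and gave no adjusted p for 2, against 517 higher and 319 lower of all 7738 genes. Mafg, a small Maf partner of Nrf2, was at 30.3 and 26.2 CPM against 23.7 and 24.7 CPM and did not pass (adjusted p = 0.127, edgeR). The other subunit gene, Gclm, was at 11.3 and 11.9 CPM against 12.4 and 11.6 CPM and did not pass (adjusted p = 0.862, edgeR). It shares 296 bp of exon with Gm17494 on the opposite strand, which had 4836 to 7999 counts per library against 83 to 123 for Gclm.

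**Figure D3:**
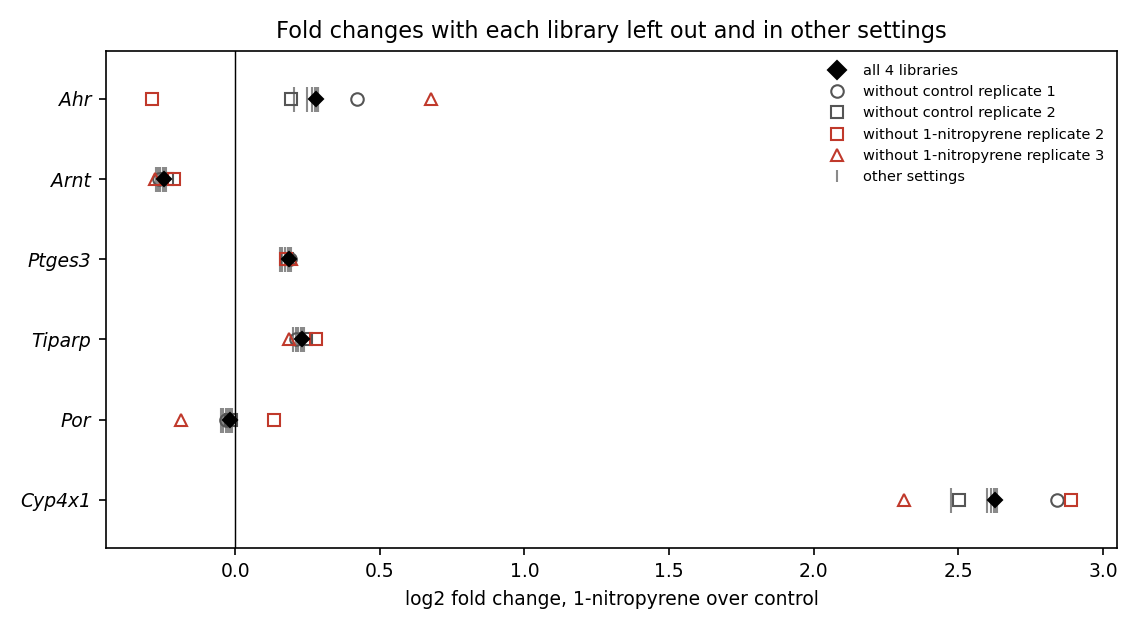
Log2 fold change of 1-nitropyrene over control (horizontal axis) for the 6 tested genes, with all 4 libraries, with each library left out and in the other settings. Ahr moves from -0.29 to 0.68 with the treated library that is left out, while Tiparp (0.18 to 0.28) stays above 0. Cyp4x1 (2.31 to 2.89) passed the main filter only through its treated libraries, so its values are a description.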

How the data were processed

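Stranded libraries of polyadenylated RNA were made, per the labels' protocols. The values deposited by the authors are raw counts of reads per gene for 4 libraries. HISAT2 2.1.0, featureCounts 1.6.3, DESeq2 and build GRCm38 (mm10) appear in the submitters' processing notes. Not given in the sources used here are the annotation used for counting, whether strand was used and how multi-mapping reads were treated, so reads of overlapping or near-identical genes may be misassigned. Of 53465 identifiers 53360 matched GENCODE M21 (GRCm38), and 105 did not. Groups and replicate numbers came from the sample titles. Separate cultures are not stated, so the spread between these libraries may be technical. The p-values rest on a trend of that spread over all genes and not on a gene's own replicates.

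Counts were tested with edgeR 4.0.16 (limma 3.58.1, R 4.3.3). Genes were filtered with filterByExpr (at least 10 counts at the median library size in 2 libraries, 1.15 CPM), which left 7738, scaled by TMM (factors 0.989 to 1.01) and fitted with the quasi-likelihood method (legacy set to FALSE). The dispersion was 0.000546 and the prior degrees of freedom were infinite. A gene's spread therefore came from a trend with level over all genes and not from its own replicates. A gene was called at a two-sided Benjamini-Hochberg adjusted p under 0.05 over all tested genes. Levels are TMM-normalised CPM. Marker sums are CPM of total counts. A standard error is the size of the log2 fold change over the square root of its F statistic. Counting intervals are exact binomial (95%) on summed counts and cover counting error only. With 2 against 2 libraries an exact permutation test cannot go below p = 0.333, and none was used. The fit was tested on simulated data.

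The 9 genes and the related lists were chosen with earlier results of these data known. Named are the 9 genes, the called and the 5 lowest-p tested genes of each list, defining genes below the filter and opposite-strand partners. Xdh, Pgrmc1, Aox1, Aox3, Gclm, Crebbp and the complex I and RNA polymerase II genes were added after their values were seen. Of the genes counted in the lists, 1 is not reported here by name. There were 17 alternative settings: other scaling, filters and gene sets, a robust fit, the older quasi-likelihood method, DESeq2 1.42.0, limma-voom, a stricter adjusted p and each library left out.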

Additional observations from a re-analysis of the deposited data

How the results depend on the processing

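Across 17 settings Tiparp kept its direction and call. Cyp4x1 did so in 15, since a mean of at least 10 CPM removed it and DESeq2 gave it no adjusted p. In those settings 1 gene of the set was called higher in place of 2. The main filter passed Cyp4x1 only through its treated libraries, so its calls are a description and not support for a rise. No gene of the set was lower in any setting (0 called). Over all genes DESeq2 called 517 higher and 319 lower. The lower calls numbered 532 without a filter on low counts and 568 at an adjusted p under 0.01. With 1 library left out they ranged from 511 (without control replicate 1) to 647, and the higher calls from 690 to 861. The cause was not tested. Such fits assume that the lone library varies as the remaining pair does. No paired analysis was possible because the groups share only replicate number 2. Cyp1a1, Cyp1b1 and Nqo1 lie at or below 3 counts, where a change could be neither detected nor excluded. The cause of these low counts was not tested.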
